A study of Mus musculus with 13 samples.

Results

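STAT3 sites called in wild-type (WT) B cells given IL-21 were sorted by whether STAT3 knockout (KO) B cells given IL-21 had a peak at the same place. The 6 peak lists used came from WT IgM+ cells (2 libraries), WT IgG1+ cells (2 libraries), KO IgM+ cells (1 library) and KO IgG1+ cells (1 library), out of 12 antibody libraries and 13 samples in the series. Overlapping peaks were merged into 5845 regions, of which 4306 had a WT peak and 694 recurred, meaning that at least 2 of the 4 WT lists had a peak there. Of all 4306 WT regions, 628 (14.6%) recurred and had no KO peak, while 66 recurred and had one.

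All 6 libraries were made from naive mouse splenic B cells that had first spent 96 h in culture, where IL-4 was present at 12.5 ng/mL and anti-CD40 antibody at 1 µg/mL. Sorting then gave IgM+ and IgG1+ fractions, and 400000 cells received anti-CD40 plus IL-21 (10 ng/mL) during a final 1 h. Binding of STAT3 was mapped with the antibody 124H6 and CUT&RUN, an assay that tethers a nuclease to the antibody inside permeabilised cells and sequences the fragments it releases. WT and KO cells thus shared the IL-4 preculture, and differed in genotype. The labels give neither how Stat3 was deleted nor the strain or age of the mice, and a peak list holds no expression by which the deletion or the B cell identity could be checked. They do not say whether libraries came from separate animals, so the p-values below reflect variation among these libraries alone, and that variation may be technical. More cells bound and more binding per cell cannot be told apart in such pools.

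IL-21 is a cytokine of follicular helper T cells. Its receptor pairs with the common gamma chain, the kinases JAK1 and JAK3 phosphorylate STAT3, and STAT3 dimers enter the nucleus and bind inverted repeats of the form TTCNNNGAA. Known STAT3 target genes in B cells include the feedback inhibitor Socs3 and the germinal centre regulator Bcl6, and an antibody peak that remains in cells without the protein is the usual control for binding that does not depend on it.

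The letters TTCNNNGAA were looked for on both strands in RefSeq promoter windows on GRCm38.p6 (250 bases before to 50 after a gene start). That assembly has the same chromosome sequences as mm10. The sites below are shown because they lie under named regions of both classes. Each is written 5′ to 3′ on the strand of the gene, with the motif in capitals. The 8 sites from Thg1l to Cish lie in recurring regions without a KO peak, and those of Maff, Bclaf1 and Irf1 in recurring regions with one.
Thg1l (chr11:45955216-45955244, minus strand): gcgcccacacTTCCGGGAAgtgcgcctct
Gen1 (chr12:11265803-11265831, minus strand): agcgagccatTTCCCGGAAggggcgggac
Rabggta (chr14:55721949-55721977, minus strand): tgctggcagcTTCCGGGAAacacctgggg
Icam1 (chr9:21015888-21015916, plus strand): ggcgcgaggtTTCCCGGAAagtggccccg
Crebrf (chr17:26715652-26715680, plus strand): gtcacgcgatTTCCGGGAAcccgtcagga
Bcl6 (chr16:23988952-23988980, minus strand): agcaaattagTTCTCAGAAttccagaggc
Socs3 (chr11:117969502-117969530, minus strand): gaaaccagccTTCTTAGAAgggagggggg
Cish (chr9:107296660-107296688, plus strand): tcctggaaagTTCTTGGAAatctgtcaaa
Maff (chr15:79347537-79347565, plus strand): gcgtgagtaaTTCCGGGAAgctcgcctta
Bclaf1 (chr10:20312237-20312265, plus strand): gtctcgactgTTCTTCGAAcaaagccgag
Irf1 (chr11:53769914-53769942, plus strand): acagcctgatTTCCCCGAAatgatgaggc

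The 250 bases before the start of Icam1, which encodes an adhesion molecule, and of Irf1, an interferon-responsive transcription factor, are shown whole because the first lay under a strong region without a KO peak and the second under a region that kept one. Capitals again mark the motif.
Icam1 promoter (chr9:21015690-21015939, plus strand): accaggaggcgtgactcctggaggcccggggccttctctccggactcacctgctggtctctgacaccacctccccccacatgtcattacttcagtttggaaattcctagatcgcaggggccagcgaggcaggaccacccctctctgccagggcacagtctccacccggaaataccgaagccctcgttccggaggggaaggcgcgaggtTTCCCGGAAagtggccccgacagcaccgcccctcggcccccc
Irf1 promoter (chr11:53769764-53770013, plus strand): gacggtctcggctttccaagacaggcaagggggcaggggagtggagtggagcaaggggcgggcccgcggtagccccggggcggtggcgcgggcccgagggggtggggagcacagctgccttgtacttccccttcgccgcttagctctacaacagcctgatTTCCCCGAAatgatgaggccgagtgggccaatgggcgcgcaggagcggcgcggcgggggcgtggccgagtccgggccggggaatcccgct

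The 6 lists held 7276 peaks on chromosomes 1 to 19, X and Y. The WT lists had 2034 and 1171 peaks in IgM+ cells and 865 and 1485 in IgG1+ cells, and the KO lists had 1073 in IgM+ and 648 in IgG1+ cells. Sequencing depth is not given with the lists. No peak record was shared between libraries.

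Most WT regions lacked a KO peak, whether they recurred or not. Over all WT regions 97% had none. Of the 3612 regions found in a single WT list, 98.2% had no KO peak, and of the 694 recurring regions 90.5% had none. The share with a KO peak was 9.51% of recurring regions (exact 95% interval 7.43% to 11.9%, covering counting error only), against 1.80% of single-list regions (1.39% to 2.29%). By the number of WT lists, a KO peak was present in 28 of 331 regions found in 2 lists, 10 of 196 found in 3 and 28 of 167 found in all 4. Lacking a KO peak was therefore more frequent among the regions seen in 1 list than among those that recurred. Among regions with a KO peak, the mean WT fold was under 3 in 20 of the 28 found in all 4 lists. It was under 3 in 3 of the 10 found in 3 lists and in 0 of the 28 found in 2. These low-fold regions are described below. The KO peaks at recurring regions came from the IgM+ KO list in 58 regions, from the IgG1+ KO list in 37 and from both in 29.

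**Figure D1:**
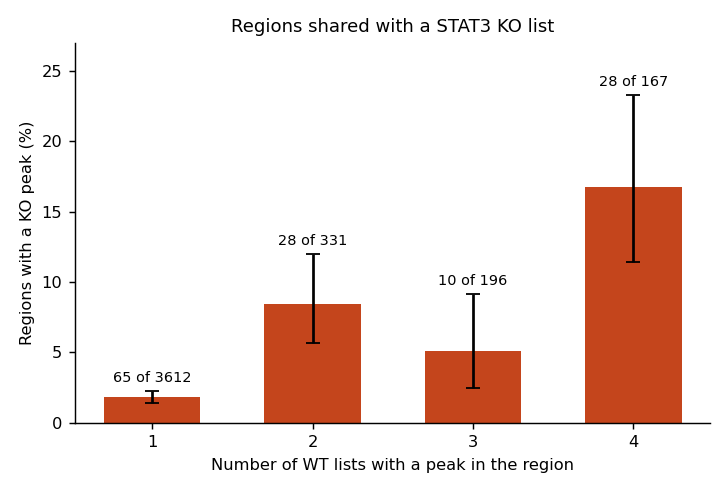
Percent of regions with a peak in at least 1 KO IL-21 list (vertical axis) by the number of WT IL-21 lists with a peak in the region (horizontal axis). Bars are shares, error bars exact 95% binomial intervals, and the labels give the counts: 65 of 3612 single-list regions had a KO peak, against 28 of 167 found in all 4 WT lists. Of those 28, 20 had a mean WT fold under 3.

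Each KO list was also set beside a WT list that had no part in choosing the regions. Regions shared by at least 2 of any 3 WT lists were looked for in the fourth WT list and in each KO list. The fourth list had a peak in 360 of 412 regions (87.4%) when it was the first IgM+ list, in 353 of 491 (71.9%) for the second IgG1+ list, in 315 of 566 (55.7%) for the second IgM+ list and in 228 of 645 (35.3%) for the first IgG1+ list. Over the same 4 sets of regions the IgM+ KO list had a peak in 8.13% to 9.57%, and the IgG1+ KO list in 4.96% to 7.77%. Every WT list thus held more of the regions shared by the other WT lists than either KO list did. List length differed, so the comparison was repeated with the 648 strongest peaks of each list. The WT lists then held 43.3% to 81.7% of the regions and the KO lists 7.18% to 9.65%. Among regions whose mean fold in the other WT lists was at least 3, the equal-length KO lists held 1.89% to 3.14% and the WT lists 40.6% to 80.9%.

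The strongest regions without a KO peak lay mostly at gene ends, led by Lsm4, Thg1l and Slc39a1. Of the 12 best-ranked regions found in all 4 WT lists, 11 had a strongest summit no more than 1000 bp from the start or end of a gene, counting protein-coding genes. A peak's fold is the authors' deposited fold enrichment, and the control behind it is not stated. Distances to genes are measured from a region's strongest summit. At Lsm4, which encodes a subunit of the ring that binds U6 RNA, the fold was 103 and 66.7 in the IgM+ lists and 59.6 and 56.7 in the IgG1+ lists (chr8:70673105-70674353). At Thg1l, an enzyme that adds a guanosine to histidine tRNA, it was 117 and 62.4 in IgM+ and 60.1 and 63.3 in IgG1+ cells (chr11:45954952-45955902). These 2 regions ranked between 5 and 7 in every WT list. The zinc transporter gene Slc39a1 followed with 95.4 and 40.5 in IgM+ and 48.6 and 47.1 in IgG1+ cells (chr3:90247713-90248977). The highest fold of any peak in either KO list was 10.8.

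The other genes of the 12 were Gen1, a nuclease that cuts Holliday junctions, Lmna, which encodes nuclear lamins A and C, the kinase gene Gsk3a, Rabggta, which acts in lipid modification of Rab proteins, Jak3, the small GTPase gene Arf6, Icam1 and Crebrf. Their mean folds over the 4 WT lists ran from 15.1 ± 3.28 at Crebrf to 28.4 ± 10.8 at Lmna (SD, n = 4). At Jak3, the kinase bound to the common gamma chain, the strongest summit lay 14 bp outside the gene (region chr8:71676008-71676730), with a fold of 29.1 and 19.5 in IgM+ and 9.78 and 17.5 in IgG1+ cells. The WT summits at Jak3 lay within 8 bp of each other. At Icam1 the fold was 31.1 and 27.7 in IgM+ cells and 10.5 and 24.6 in IgG1+ cells (chr9:21014970-21016828). The remaining region of the 12 had no protein-coding gene within 50000 bp (chr11:43358302-43359706). Its fold was 28.4, 15.5, 14.1 and 24.0, and the nearest microRNA gene, Mir146, lay 15627 bp from its summit. Of these 12 regions, 9 also had a peak in at least 1 WT list with IL-4 and 0 had one in a KO list with IL-4. Over all 139 regions found in all 4 WT lists without a KO peak, the shares were 30.2% (42 regions) and 10.1% (14 regions). A count of 0 in 12 is near the latter share. The WT counts pool more lists with IL-4 than the KO counts do, so they do not compare the genotypes.

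**Figure D2:**
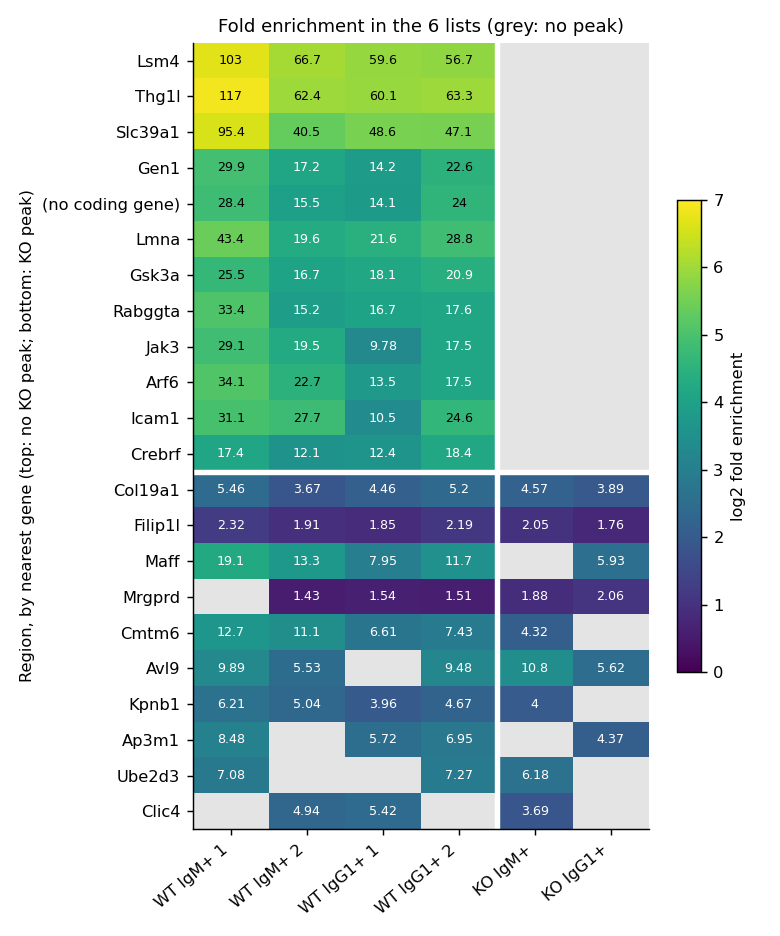
Fold enrichment in the 6 IL-21 lists (columns) for the 12 best-ranked regions without a KO peak (upper rows) and the 10 best-ranked regions with a KO peak and a gene within 50000 bp (lower rows). The colour is the log2 fold, the number in each cell the fold and grey means no peak; Thg1l reached 117 in the first WT IgM+ list, while the highest KO value shown is 10.8 at Avl9.

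Over the whole class, the mean WT fold of the 628 regions ranged from 2.85 to 75.7 with a median of 6.27. The 139 of them found in all 4 WT lists had a median of 9.55. In 19 of the 139, every one of the 4 WT folds was above 10.8, the highest fold of any KO peak, and 65 of the 628 had a mean fold above it. These folds were set side by side without a test.

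Of 25 genes of JAK-STAT signalling and its feedback, 11 had a recurring region without a KO peak and 0 had one with a KO peak. Those with a region included Jak1, Jak3, Stat3, Stat5b, Socs1, Socs3, Cish, Ptpn1, Ptpn2 and Ptpn11. Over all 559 protein-coding genes nearest to a recurring region, 520 had one without a KO peak and 44 (7.87%) had one with a KO peak, so a count of 0 in 11 genes is close to that background. Of all 21887 protein-coding genes in the table, 2.38% were nearest to a recurring region without a KO peak and 0.201% to one with a KO peak. These shares are the background for the list counts that follow as well. The gene lists were chosen with earlier results of these data known, so a count above these shares is a description and no support for a list.

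At Stat3 itself the strongest summit lay 79 bp outside the gene and 133 bp from an annotated start (region chr11:100939445-100940152). The fold there was 23.5 and 11.4 in IgM+ and 8.55 and 12.6 in IgG1+ cells. Neither KO list had a peak there. Socs3, the feedback inhibitor, had 6 regions without a KO peak between 117946243 and 117969687 on chromosome 11, more than any other gene. The strongest of them had a fold of 25 and 16.6 in IgM+ and 9.92 and 21.0 in IgG1+ cells (chr11:117951914-117953025). The promoter region of Socs3, which holds the site printed above, had 13.8 and 8.95 in IgM+ cells, no peak in the first IgG1+ list and 7.74 in the second (chr11:117968748-117969687). Cish, another inhibitor of cytokine signalling, had a promoter region with 15.5, 8.32 and 7.43 in 3 WT lists and again none in the first IgG1+ list. That list is the shortest of the 4. The tyrosine phosphatase gene Ptpn1 and the inhibitor Socs1 had 3 regions each.

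Of 23 genes that mark B cells or act in germinal centres, 8 had a region lacking a KO peak (2.38% of all genes did) and 2 had one with a KO peak (0.201% of all genes). Bcl6, the repressor that drives the germinal centre programme, had a fold of 29.7 and 11.6 in IgM+ and 6.67 and 14.9 in IgG1+ cells (chr16:23988392-23989110) and no KO peak. Ccr7, the receptor for chemokines of the T cell zone, had both kinds of region. The one with its summit 11813 bp from the gene was found in all 4 WT lists at 18.4, 7.47, 8.90 and 12.6 with no KO peak (chr11:99132263-99132802). The one inside the gene was found in the IgM+ lists only, at 5.15 and 5.26, and the IgM+ KO list had a peak there with a fold of 7.11 (chr11:99150477-99151005). Pou2f2, which encodes the octamer factor OCT2, had its region only with a KO peak (8.83 and 4.98 in the WT IgM+ lists, 6.18 in the KO IgM+ list).

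Among 13 plasma cell genes, Batf, Id2 and Il10 had a region without a KO peak and 0 had one with, beside 2.38% and 0.201% of all genes. The other members, among them Prdm1, Xbp1, Irf4, Sdc1, Mzb1 and Jchain, were not the nearest gene within 50000 bp of any recurring region. With 3 genes counted, 0 with a KO peak is near the background of 7.87%. At Il10, an immunoregulatory cytokine, the fold was 20.5 and 9.68 in IgM+ and 11.8 and 13.9 in IgG1+ cells (chr1:131022698-131023418). At Batf, an AP-1 factor needed for class switching, it was 19.8 and 17.2 in IgM+ and 8.09 and 14.2 in IgG1+ cells (chr12:85704766-85706357). The first IgM+ list was the highest at Il10, Batf, Bcl6 and Ccr7.

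Against the same 2.38% of all genes, survival and proliferation genes gave 8 of 20 (Bcl2l1, Bcl3, Birc3, Mcl1, Mdm2, Mnt, Pim1 and Pmaip1) and immediate early genes 7 of 20 (Dusp1, Egr1, Fos, Fosl2, Junb, Jund and Klf10), with 0 KO peaks in either list. NF-kB and CD40 pathway genes gave 2 of 15 (Nfkbiz and Rela). On the list of 16 cytokine receptors 0 genes had a recurring region, a count near that background. Of the 13 interferon response genes found in the table, 5 had a region without a KO peak (Gbp2, Irf1, Irf2, Irf9 and Plscr1). Irf1 also had a region of the other class. Its upstream region, with a summit 6224 bp from the gene, had folds of 16.2, 10.7, 6.61 and 13.6 and no KO peak (chr11:53763109-53764154), whereas the region at its promoter had 5.11, 4.65, 5.19 and 4.16 in the WT lists and 3.54 in the KO IgM+ list (chr11:53769527-53770647). All 4 WT values at the promoter were above the KO value.

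Of markers of other cells, 0 of the 13 T and NK cell genes in the table, 0 of 10 erythroid and platelet genes and 1 of 12 myeloid genes (Csf3r) had a recurring region without a KO peak, counts near the 2.38% of all genes. The housekeeping list gave Ywhaz of 12 genes. None of these lists gave a gene with a KO peak. The long noncoding gene Pvt1 held 2 regions found in all 4 WT lists without a KO peak, with mean folds of 12.5 and 8.38, the nearer of them with its summit 179287 bp from Myc.

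The 66 recurring regions with a KO peak were of 2 kinds that differed in fold. In 23 the mean WT fold was under 3 (1.37 to 2.58), and in 43 it was 3 or higher (3.28 to 13.0), a limit chosen after the values were seen. The low-fold regions held the top ranks of every list: their median mean rank was 21, and the region at chr2:98666701-98667251 ranked 1 in all 6 lists with folds of 1.88, 1.68, 1.66 and 1.72 in WT and 1.90 and 1.98 in KO. Both KO values there were above all 4 WT values. Of the 23, 12 lay at the assembled start of chromosome 9 (3000952 to 3038249), with folds of 1.34 to 2.4 in WT and 1.47 to 2.82 in KO lists. None of the 23 had its strongest summit within 1000 bp of a gene end, and 19 (82.6%) lay over 50000 bp from any protein-coding gene. All 23 also had a peak in both KO lists with IL-4. Their outermost WT summits lay a median of 7 bp apart, and the nearest KO summit lay a median of 1 bp from the strongest WT summit. Peaks with a fold under 3 made up 10 to 12 of the 20 strongest peaks of each WT list, 19 of the 20 strongest in the IgM+ KO list and 20 of 20 in the IgG1+ KO list.

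The 43 regions with a mean WT fold of at least 3 were mostly at genes, and 27 of them (62.8%) had a summit within 1000 bp of a gene end. The highest mean fold was at Maff, which encodes a small MAF transcription factor: 19.1 and 13.3 in IgM+ and 7.95 and 11.7 in IgG1+ cells, against 5.93 in the IgG1+ KO list and no peak in the IgM+ KO list (chr15:79347210-79348250). All 4 WT values were above that of the KO list. Cmtm6, a membrane protein gene, had 12.7, 11.1, 6.61 and 7.43 in WT and 4.32 in the KO IgM+ list. Avl9 went the other way, with 9.89, 5.53 and 9.48 in 3 WT lists and 10.8 and 5.62 in the KO IgM+ and IgG1+ lists, so that WT and KO overlapped. At Prdx3, a mitochondrial peroxidase, both KO lists (6.18 and 7.80) were above the 2 WT values (3.47 and 4.11). Counting only lists with a peak, the highest KO fold was under the lowest WT fold in 22 of the 43 regions and not in the other 21. Of the 43, 28 had a peak in only 2 of the 4 WT lists, and a list without a peak entered no fold. In these 43 the nearest KO summit lay a median of 113 bp from the strongest WT summit. In the 628 regions without a KO peak the outermost WT summits lay a median of 112 bp apart. These are different measures in different regions, so they do not compare the agreement of KO with WT summits to that among WT summits.

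**Figure D3:**
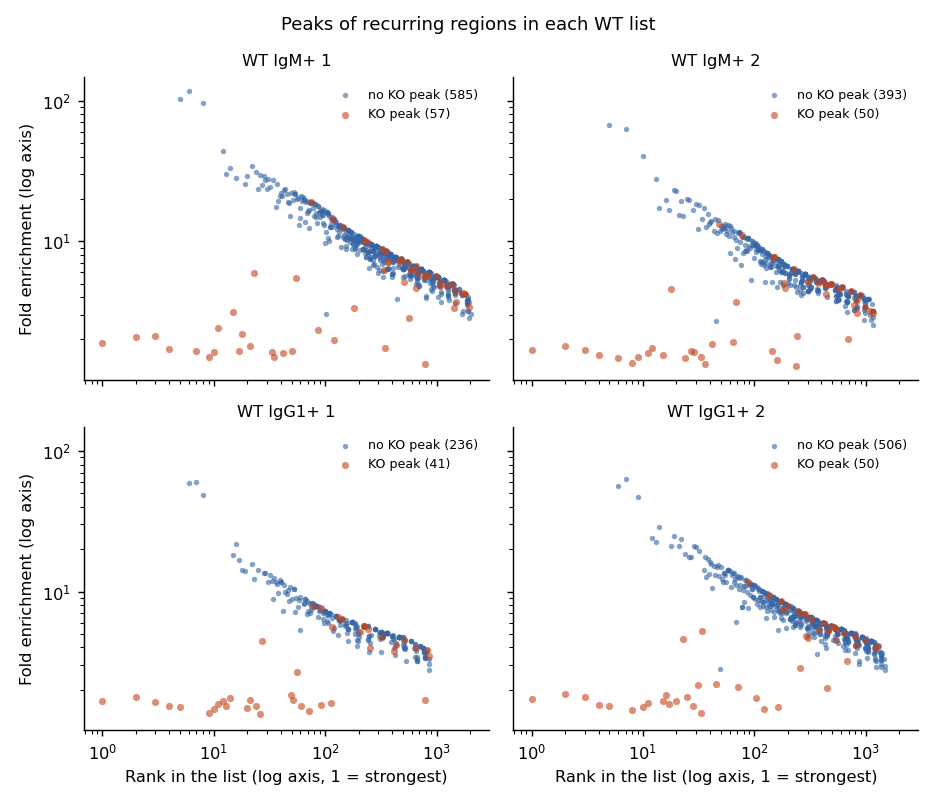
Fold enrichment (vertical, log axis) against rank by −log10 p within the list (horizontal, log axis) for the peaks of recurring regions, 1 panel for each WT IL-21 list and 1 point for each region. Regions without a KO peak (blue) nearly all fall along a single band; regions with a KO peak (red) lie partly in that band and partly below it, many at folds under 3 and with ranks from 1.

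Ranks, folds, widths and gene distances of the 2 classes were compared within each WT list, with the 4 lists as the units of the test. Each recurring region is by definition in at least 2 of these lists, and its class is the same in all of them. The 4 differences are therefore partly repeat readings of the same regions and not independent replicates. An exact sign-flip test over 4 lists cannot give a p below 0.125. Regions with a KO peak ranked higher: their median rank percentile was 83.0 and 86.5 in the IgM+ lists and 91.0 and 88.8 in the IgG1+ lists, against 81.4 and 77.6, and 77.9 and 77.1, without a KO peak. The mean difference was 8.84 ± 5.13 percentile points (SD, n = 4, higher in 4 of 4 lists, exact two-sided p = 0.125). Their folds were lower, with medians of 4.63 and 3.16 in IgM+ and 1.70 and 4.04 in IgG1+ lists against 7.56 and 5.53, and 5.47 and 6.0. The mean difference in median log2 fold was -0.94 ± 0.50 (SD, n = 4, lower in 4 of 4 lists, exact p = 0.125). Widths differed by less than the spread between lists (log2 difference -0.05 ± 0.20, SD, n = 4, exact p = 0.75).

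The rank and fold differences depended on the processing, and the cause of the changes was not tested. With a −log10 q limit or equal list lengths, percentiles were taken anew within the shortened lists. The rank difference rose to 25.5 percentile points with a −log10 q of at least 5, to 21.6 with equal list lengths and to 18.3 without the KO IgM+ list. Without the peaks in regions found in all 12 lists of the series the difference turned to -6.27 points (lower in 3 of 4 lists, exact p = 0.25), and among regions with a mean WT fold of at least 3 to -7.70 (lower in 4 of 4 lists, exact p = 0.125). Without those same regions the log2 fold difference was -0.30, and with all 4 WT lists required it was -2.33 (each lower in 4 of 4 lists, exact p = 0.125). The share of peaks near a gene end also turned. It was 32.7% with a KO peak against 43.0% without one, a difference of -10.3 ± 5.72 percentage points (SD, n = 4, 4 of 4 lists, exact p = 0.125). Among regions with a fold of at least 3 it was 62.3% against 42.8%, and without the regions found in all 12 lists 55.4% against 43.0% (each exact p = 0.125, 4 of 4 lists). In the other direction it reached -36.5 with a −log10 q of at least 5 and -36.1 with all 4 WT lists required.

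Regions that recurred without a KO peak lay nearer to genes than those seen once. Of the 628, 263 (41.9%) had a summit within 1000 bp of a gene end, 175 (27.9%) lay inside a gene further from its ends, 145 (23.1%) lay within 50000 bp of a gene and 45 (7.17%) beyond that. Of the 3547 single-list regions without a KO peak 21.3% were near a gene end, and of the 1539 regions found only in KO lists 13.2%. These are shares of regions, with no test. Measured to annotated gene starts alone, 38.5% of the recurring regions without a KO peak, 60.5% of the 43 with one, 18.8% of the single-list regions and 9.81% of the KO-only regions lay within 1000 bp, over the chromosomes that have windows in the table.

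**Figure D4:**
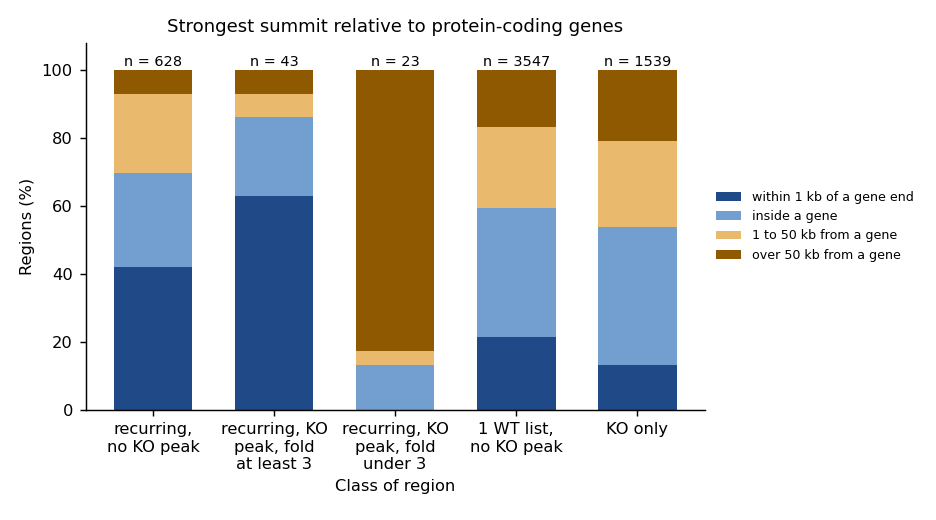
Percent of regions (vertical axis) by the place of their strongest summit relative to protein-coding genes, for 5 classes of region (horizontal axis) with the number of regions above each bar. Near-gene-end summits make up 41.9% of recurring regions without a KO peak and 62.8% of those with a KO peak and a fold of at least 3, and 82.6% of the low-fold class lies over 50000 bp from a gene.

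The STAT-type letters were most frequent in promoters reached by regions that lacked a KO peak and recurred most. The chromosomes with windows hold 610 of the 628 recurring regions without a KO peak. Of the 139 found in all 4 WT lists, these chromosomes hold 135. TTCNNNGAA was in 1636 of all 21263 promoter windows of protein-coding genes (7.69%). It was in 58 of the 276 windows reached by a recurring region without a KO peak (21.0%, exact 95% interval 16.4% to 26.3%), and in 28 of 76 (36.8%, 26.1% to 48.7%) where the region was found in all 4 WT lists. Windows reached by a recurring region with a KO peak held it in 4 of 31 cases (12.9%, 3.63% to 29.8%), single-list regions without a KO peak in 43 of 572 (7.52%) and KO-only regions in 4 of 109 (3.67%). The interval of the class with a KO peak spans both the share in all windows and that of the class without. With 1 more base in the spacer, TTCNNNNGAA was in 6.35% of all windows and in 8.70% of those reached by recurring regions without a KO peak. Windows of one gene, or of neighbouring genes such as Gen1 and Smc6, can overlap and share a motif. They are therefore not independent, and the intervals cover counting error only. The 58 windows came from 50 regions.

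**Figure D5:**
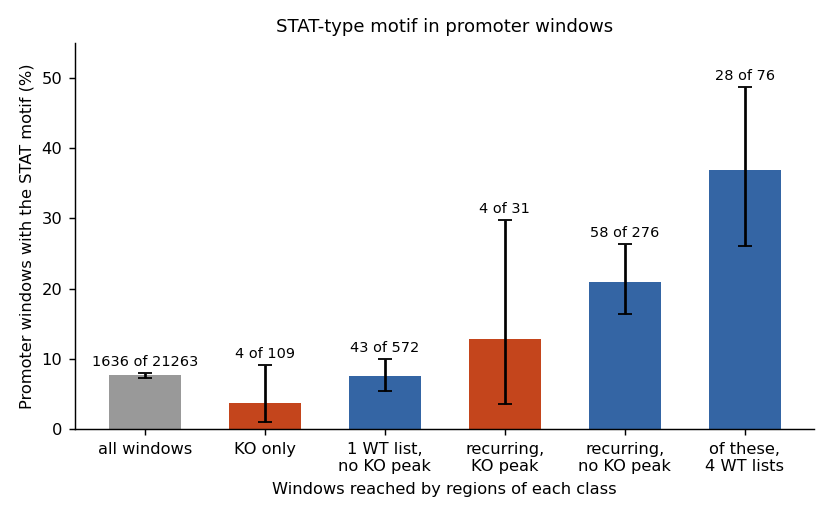
Percent of promoter windows that hold the STAT-type motif (vertical axis) among all windows and those reached by each class of region (horizontal axis). Bars are shares, error bars exact 95% binomial intervals, labels the counts; the share is 7.69% in all windows, 12.9% with a KO peak, 21.0% without one and 36.8% without one in all 4 WT lists.

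Of the 58 windows, 30 held a single form of the motif. TTCCGGGAA on either strand (TTCCCGGAA on the other), picked after the sites had been seen, was in 95 of all windows (0.447%), in those 30 of the 276 reached by recurring regions without a KO peak (10.9%) and in 16 of the 76 reached by those found in all 4 WT lists (21.1%). It was in 1 of 31 windows with a KO peak, that of Maff, in 7 of 572 single-list windows and in 0 of 109 KO-only windows. Of the 95 windows with this form, 31.6% were reached by a recurring region without a KO peak, compared with 1.30% of all windows. Of the 12 best-ranked regions 8 reached a window, and 5 of these held this form: Thg1l, Gen1, Rabggta, Icam1 and Crebrf. In the 50 regions without a KO peak that reached a window with TTCNNNGAA, the motif lay a median of 141 bp from the strongest summit. It lay within 50 bp in 5 of them. Where a region reached several such windows, the first listed was used, so another motif can lie closer. At the region shared by Lcmt2 and Adal, for example, the motif used lay 179 bp away and the other 112 bp. A motif outside the windows was not looked for, so these distances hold for promoters alone.

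The lists with IL-4 were not used to form the classes. The WT lists with IL-4 were replicates 1 and 2 of IgM+ and of IgG1+ cells, and the KO lists replicate 1 of each. A share counts a peak in any list of the genotype. WT shares thus pool more lists than KO shares, and the difference between them does not compare the genotypes. A KO list with IL-4 had a peak in 58 of the 628 regions without a KO IL-21 peak (9.24%), and a WT list with IL-4 in 107 (17.0%). Of the 66 regions with a KO IL-21 peak, 41 (62.1%) had a KO IL-4 peak and 42 (63.6%) a WT IL-4 peak, and in single-list regions without a KO peak the shares were 2.57% and 2.59%. Of the 43 regions with a fold of at least 3 and a KO IL-21 peak, 18 (41.9%) had a KO IL-4 peak. Thus 570 of the 628 regions, and 125 of the 139 found in all 4 WT lists, had no KO peak with either cytokine. The 58 with a KO IL-4 peak included strong regions near Mllt6 (15.9 ± 5.74, SD, n = 4), a chromatin factor gene, and Casp4, an inflammatory caspase (14.6 ± 3.29, SD, n = 4), and the low-fold region at Lars2, with 3.05, 2.69 and 2.82 in 3 WT lists.

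As whole lists, WT had higher top folds and a larger share of peaks at gene ends than KO. Exact permutation tests of WT against KO lists within isotype have 9 arrangements and cannot give a p below 0.111. The highest fold of a list was 117 and 66.7 in WT IgM+, 60.1 and 63.3 in WT IgG1+, 10.8 in KO IgM+ and 9.36 in KO IgG1+ cells. A fold of at least 5 was reached by 55.5% and 31.4% of WT IgM+ peaks, 37.9% and 45.7% of WT IgG1+ peaks, 21.2% of KO IgM+ peaks and 22.4% of KO IgG1+ peaks (difference 20.8 percentage points, exact p = 0.222). That difference was 5.75 with a −log10 q of at least 5 (exact p = 0.556), 44.1 with equal list lengths and 1.96 for a fold of at least 3 in place of 5. Peaks near a gene end made up 31.5%, 26.3%, 25.1% and 29.4% of the WT lists and 16.7% and 16.5% of the KO lists (difference 11.5, exact p = 0.111). The WT and KO values of these 3 measures did not overlap. Of the KO peaks, 90.8% in IgM+ and 89.8% in IgG1+ cells lay in regions with no WT IL-21 peak, and only 16 such regions were in both KO lists.

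Numbers of peaks overlapped between the genotypes (log2 difference 0.67, exact p = 0.222), and median widths were 313, 277, 260 and 280 bp in WT and 255 bp in both KO lists (log2 difference 0.14, exact p = 0.222). With a −log10 q of at least 5 these were 1.63 and 0.28, and the width difference was 0.42 with equal list lengths. A peak of a KO IL-4 list overlapped 7.63% ± 0.677 of WT peaks (SD, n = 4) and 10.2% and 8.67% of the KO IgG1+ and IgM+ peaks (difference -1.80 percentage points, exact p = 0.111). It was -15.9 with a −log10 q of at least 5 and -0.54 with equal list lengths (exact p = 0.667). A WT IL-4 peak overlapped 10.5% ± 1.03 of WT peaks and 7.56% and 7.08% of KO peaks (difference 3.19, exact p = 0.111). This last difference turned to -6.41 with a −log10 q of at least 5 (exact p = 0.222) and was 7.33 with equal list lengths. More WT than KO lists with IL-4 were pooled, so overlaps with WT IL-4 and with KO IL-4 peaks are not comparable with each other.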

How the data were processed

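Per the submitters' processing notes, the tools included MACS2 2.2.7.1, Bowtie2 2.4.1, deepTools 3.5.1 and Trimmomatic 0.39, with mm10 as the build, and no role is recorded for any of them. The peak-calling control, any blacklist and the handling of the yeast spike-in were not given in those sources. The authors deposited 1 peak list per library, in which each peak has a position, a summit, a score, a fold enrichment (a ratio), a −log10 p and a −log10 q. Of 7475 deposited peaks in the 6 lists, 199 outside chromosomes 1 to 19, X and Y were left out. The lists carry no depth. The input sample was not analysed here.

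Peaks overlapping by at least 1 bp were merged, and ranks were taken within each list by −log10 p. Genes were the nearest of 21887 protein-coding genes in a RefSeq table (GRCm38.p6) within 50000 bp of the strongest summit. The table gives no exons. Motif searches used RefSeq promoter windows of protein-coding genes. Tests were exact permutations over lists, computed with Python 3.11.15, numpy, pandas and scipy, and the code was tested on simulated data. Shares of regions and windows have exact Clopper-Pearson 95% intervals. The sign-flip and permutation tests cannot reach 0.05, and 10 measures were tested, without adjustment.

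The members, gene lists and tests were chosen with earlier results of these data known. Named genes are the 12 best-ranked regions in all 4 WT lists without a KO peak, the 10 best-ranked recurring regions with a KO peak, the 3 strongest peaks of each KO list and the members of the fixed lists with a region in at least 3 WT lists. The limit of a mean fold of 3, the 10 best-ranked KO-peak regions with a gene, the search of a WT list for regions of the other 3, the form TTCCGGGAA and the genes named outside the rule (such as Prdx3, Pou2f2, Pvt1, Mllt6, Casp4 and Lars2) were chosen after values were seen. Alternatives are given in the closing section. One gene of the JAK-STAT list is not reported here by name.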

Additional observations from a re-analysis of the deposited data

Results flagged for a closer look

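The first WT IgM+ list stood apart in its strongest fold, 117 at Thg1l, where the highest folds of the other 3 WT lists were 60.1 to 66.7. This was the only one of 15 sets of 4 WT values in which the highest or lowest list lay far from the rest, and chance alone flags about 1 such set in 20.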

How the results depend on the processing

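With at least 3 of 4 WT lists required, 325 regions lacked a KO peak and 38 had one, the fixed gene lists gave 29 genes in place of 46 and the motif share was 27.6%. With all 4 required these were 139, 28 (16.8%), 14 and 36.8%. With a −log10 q of at least 5, 34 regions (6.75%) had a KO peak, the motif share was 27.6%, the log2 width difference turned to 0.022 and the difference in overlap with WT IL-4 peaks to -6.41. With equal list lengths, which fix the number of peaks, 40 regions had a KO peak and the motif share was 26.8%. Without regions found in all 12 lists the share with a KO peak was 6.96%, and the differences turned to -6.27 for rank and 12.4 for gene ends. Among regions with a mean fold of at least 3, chosen after seeing the data, they were -7.70 and 19.5. Leaving out 1 list at a time gave 366 to 657 regions without a KO peak (366 without the first WT IgM+ list), 37 to 59 with one (37 without the KO IgM+ list, 43 without the first WT IgM+ list), 5.33% to 10.8% with one (5.33% without the KO IgM+ list) and a motif share of 20.7% to 26.9% (26.9% without the first WT IgM+ list). The cause of these changes was not tested. Of 183 recomputed values 157 kept their direction or stayed near the main value. No test passed 0.05 under any setting, and none could. No paired analysis was possible because the KO groups have 1 library each and so share only 1 replicate number with the WT groups. The lists carry no depth, so a missing KO peak does not show that binding was absent.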
